A study of Mus musculus with 15 samples.

Results

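Type I interferon-stimulated genes were followed as a set of 40 named antiviral effectors and regulators, out of 49585 genes in the largest count tables, in pancreas RNA-Seq of mice with altered HPK1. The 40 genes were chosen by name, with earlier results of these data known. All 40 were listed in the HC and KMC tables, and 39 of them (all but Mx2) in the shorter MC table. Every listed member passed the filter on low counts in each comparison, so no member was lost from a test. The study asked what HPK1, a serine/threonine kinase of the MAP4K family, and its kinase-dead form M46 do in acinar cells during pancreatitis and in pancreatic neoplasia. The 15 libraries, each a pool of 3 mouse pancreata, had total counts of 29766575 to 38745907. They fell into 6 groups, and each transgenic group was compared with its own control.

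The MC group (3 libraries, 2 months of age) carried the M46 transgene with Bac-cre, a tamoxifen-regulated Cre driven by the acinar elastase I promoter, and its control_MC group (3 libraries, 2 months) is labelled "B control". The HC group (3 libraries, 4 months) is labelled HPK1/B and its control_HC group (2 libraries, 4 months) WT. The series design describes these pancreata as cerulein-treated, cerulein being a secretagogue that causes pancreatitis. The KMC group (2 libraries, 9 months) carried M46 and the KC group (2 libraries, 15 months) did not, and both shared Bac-cre and a further conditional allele. The strain label is C57BL/6 in all groups. No source states that libraries of a group came from separate litters or experiments, so p-values measure the spread between these pooled libraries. Map4k1 encodes HPK1. It was at 7.32, 5.05 and 7.92 CPM (counts per 1000000 counts) in the libraries labelled HC and 15.4 and 11.5 CPM in their controls. The label names an HPK1 transgene, yet Map4k1 was lower there, so they are called here the libraries labelled HC. Whether these counts include reads of the transgene was not tested. Mean Map4k1 was 7.54 ± 0.763 CPM (SD, n = 3) in MC against 3.42 ± 0.957 CPM (SD, n = 3) in control_MC, and the single values were 5.92 and 11.4 CPM in KMC against 0.544 and 1.55 CPM in KC. HPK1 is also made by leukocytes, and in each comparison the Map4k1 means differed in the same direction as those of Ptprc, the CD45 gene; the part of leukocytes in Map4k1 was not tested. In 1 of them, HC 3, Ddx3y on the Y chromosome stood at 48.3 CPM while Xist was only 0.761 CPM, unlike the other 4 libraries of that table. CPM here are scaled by TMM within a table. The acinar list took 26.3 to 73.2% of counts in the MC and KMC tables but 6.00 to 9.32% in the HC table.

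Type I interferons signal through the receptor of IFNAR1 and IFNAR2 and the kinases JAK1 and TYK2, which phosphorylate STAT proteins, STAT2 among them. STAT2 and IRF9 take part in a complex that binds the interferon-stimulated response element in promoters of these genes. IRF7 then amplifies interferon production, and the effector proteins sense, bind, modify or degrade viral RNA, while the protease USP18 removes ISG15 from proteins and restrains the receptor.

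The members lay at 28 separate places of the mouse genome (GRCm38, members within 500000 bases of the next being joined). Ifit2, Ifit3, Ifit3b and Ifit1 lay together on chromosome 19 from 34550694 to 34650009, and Oas2, Oas3 and Oas1a on chromosome 5 from 120730333 to 120907521. The PYHIN genes Ifi204, Mndal and Ifi203 shared chromosome 1 from 173747293 to 173942672. Parp9 and Dtx3l overlap head to head on chromosome 16, with starts 681 bases apart on opposite strands. Rsad2 and Cmpk2 face away from each other on chromosome 12, with starts 12752 bases apart. Some members share sequence, so that their counts may be split: 40.9% of the 100-base windows of the longest Oas1a transcript also occur in Oas1g, and 31.7% of those of Ifit3 occur in Ifit3b. For 29 of the 40 members a window of 250 bases before to 50 after the start was given (RefSeq, GRCm38.p6). The letters GAAA-NN-GAAA, the core of the interferon-stimulated response element, were found on either strand in 15 of these 29 windows (51.7%) and in those of 1079 of 27025 genes (3.99%). Matches were counted wherever they lay, overlaps included.

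The windows of the 5 members with a match of GAAA-NN-GAAA and the highest log2 fold changes in MC are shown to set the element beside these values, with matches in capitals (reading TTTC-NN-TTTC where the match is on the other strand). They run 5′ to 3′ on the gene's strand and end before the annotated start: Ifit1 (chr19:34640639-34640870, plus strand), Ifit3b (chr19:34607707-34607956, plus), Ifit3 (chr19:34583279-34583528, plus), Isg15 (chr4:156200819-156201068, minus) and Oas3 (chr5:120777662-120777909, minus).
Ifit1: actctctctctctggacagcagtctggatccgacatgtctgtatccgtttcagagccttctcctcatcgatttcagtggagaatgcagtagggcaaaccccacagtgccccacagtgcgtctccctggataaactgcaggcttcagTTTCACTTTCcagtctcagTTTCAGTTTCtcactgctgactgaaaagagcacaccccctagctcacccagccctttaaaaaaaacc
Ifit3b: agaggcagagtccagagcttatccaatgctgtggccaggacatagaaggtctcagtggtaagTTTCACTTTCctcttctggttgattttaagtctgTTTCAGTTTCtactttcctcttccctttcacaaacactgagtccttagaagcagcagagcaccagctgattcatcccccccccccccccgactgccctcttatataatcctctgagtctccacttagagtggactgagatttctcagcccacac
Ifit3: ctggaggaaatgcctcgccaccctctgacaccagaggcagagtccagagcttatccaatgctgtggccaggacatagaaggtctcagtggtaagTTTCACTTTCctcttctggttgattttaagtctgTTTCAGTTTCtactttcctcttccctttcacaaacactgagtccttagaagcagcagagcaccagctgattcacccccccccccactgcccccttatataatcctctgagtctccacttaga
Isg15: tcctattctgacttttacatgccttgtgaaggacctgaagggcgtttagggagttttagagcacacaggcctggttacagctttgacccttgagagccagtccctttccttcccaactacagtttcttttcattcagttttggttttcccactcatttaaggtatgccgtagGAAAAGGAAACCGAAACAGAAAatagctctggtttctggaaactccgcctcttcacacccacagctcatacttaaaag
Oas3: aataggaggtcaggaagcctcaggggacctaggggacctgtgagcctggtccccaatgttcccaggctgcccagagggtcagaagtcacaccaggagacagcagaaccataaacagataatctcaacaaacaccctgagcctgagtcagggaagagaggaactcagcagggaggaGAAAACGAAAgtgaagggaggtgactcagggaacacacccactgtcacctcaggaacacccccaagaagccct
Ifit1, Ifit3b and Ifit3 each held 2 matches, Isg15 held 3 that overlap, and Oas3 held 1. The matches ended within 86 bases of the annotated start in Ifit1, Isg15 and Oas3 and lay farther upstream in the near-identical windows of Ifit3 and Ifit3b. Over the members with a window, the median log2 fold change in MC was 2.03 for the 15 with a match and 1.99 for the 14 without. Irf7 and Ifi44, among the 5 members with the highest values in MC, had no match in their windows.

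The comparison of MC with control_MC asked what the kinase-dead M46 changes in the inflamed pancreas. In MC, each of the 39 members was higher in all 3 libraries than in any of the 3 control_MC libraries, where the same held for 10.9% of the 13902 genes tested. The log2 fold changes ran from 1.1 for Parp9 to 4.07 for Ifit1, with a median of 2.21, against -0.02 over all genes tested, of which 46.9% were above 0. At an unadjusted p under 0.05, edgeR's quasi-likelihood test put 39 of 39 members higher (9.2% of all genes). After Benjamini-Hochberg adjustment edgeR called none of the 39 at adjusted p of at most 0.05 and a log2 fold change of at least 1, as it called 0% of all genes, and the members' adjusted p ran from 0.0781 to 0.166. DESeq2 called 39 of 39 (3.11% of all genes higher). The edgeR count rests on single libraries: it was 39 members (171 genes) without MC 1 and 30 members (718 genes) without control_MC 2, and 0 without any other library.

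**Figure D1:**
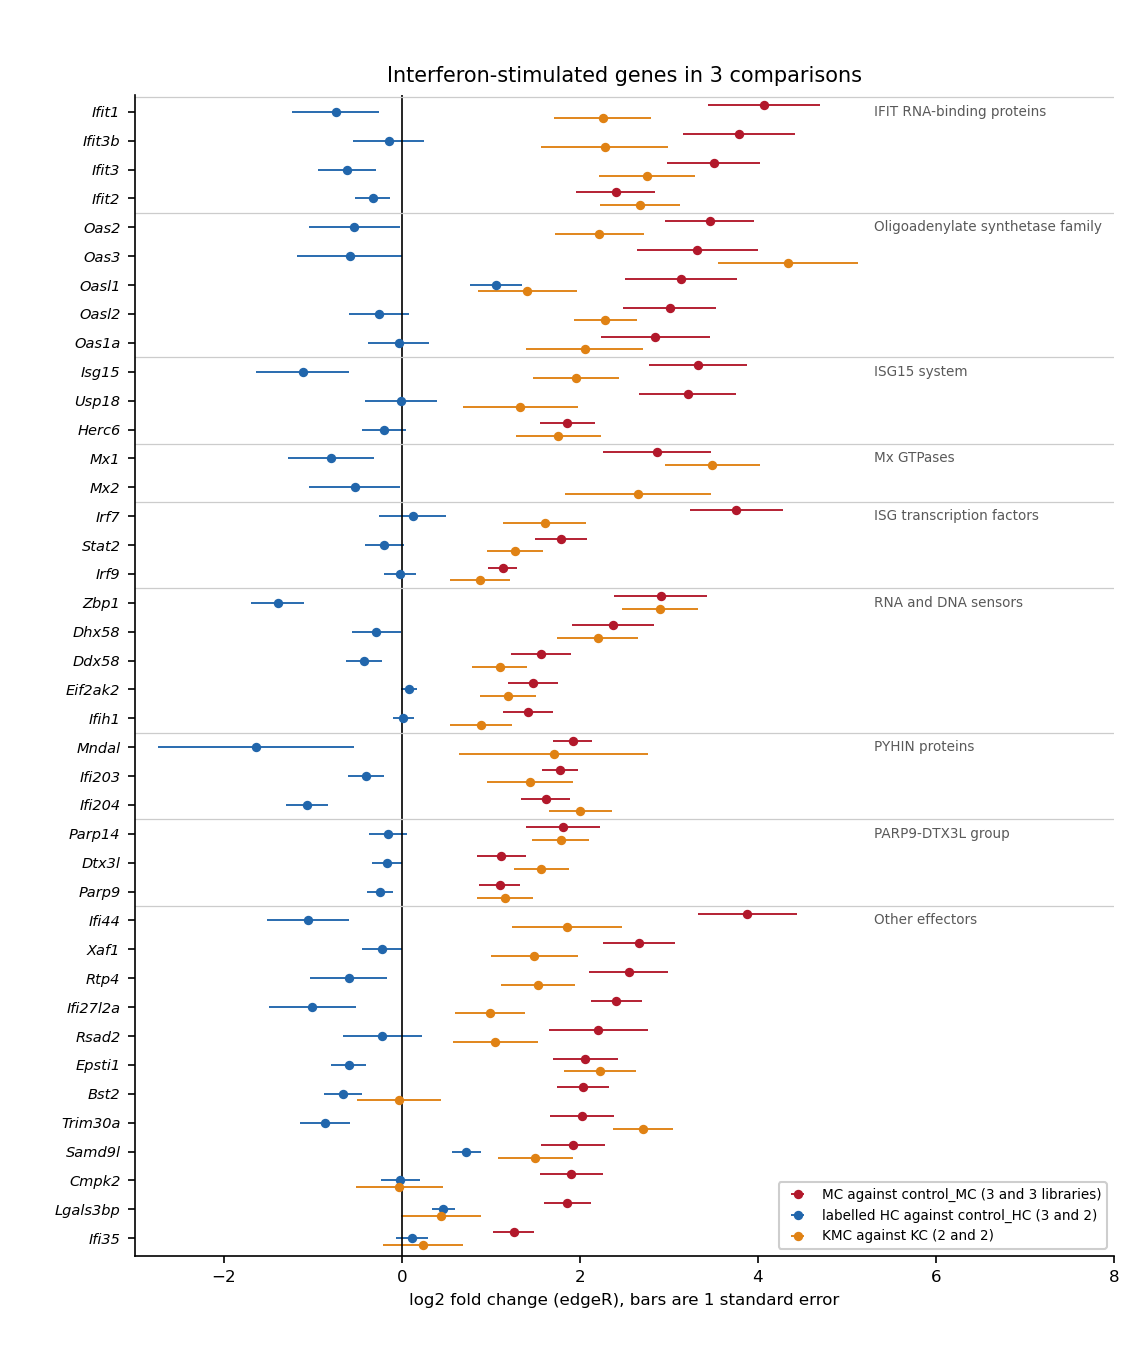
The log2 fold change of each member (x axis, edgeR) in 3 comparisons, with bars of 1 standard error, members grouped by role (y axis). All 39 MC points lie right of 0, from 1.1 to 4.07, whereas 33 of 40 points of the libraries labelled HC lie left of it.

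Among the transcription factors, Irf7 was at 57.6, 161 and 257 CPM in MC and at 14.8, 10.1 and 10.2 CPM in control_MC. All MC libraries were above all controls, and MC 1 was the lowest of the 3. The log2 fold change of Irf7 was 3.76 (SE 0.524, edgeR adjusted p = 0.0781), on means of 158 ± 99.5 (SD, n = 3) and 11.7 ± 2.68 CPM (SD, n = 3). Stat2 was at 37.7, 72.4 and 86.2 CPM in MC against 20.7, 19.8 and 16.2 CPM, a log2 fold change of 1.79 (SE 0.291, edgeR adjusted p = 0.083). Irf9, whose product gives that complex its contact with DNA, was at 42.7, 56.9 and 56.5 CPM against 23.1, 27.6 and 20.4 CPM. Its log2 fold change of 1.13 (SE 0.164, edgeR adjusted p = 0.0781) was the third lowest among the 39 members. Of the 3 factors, Irf7 had by far the widest gap between the groups and also the widest spread within MC.

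The IFIT family, which binds viral RNA lacking the methyl marks of host caps, held 3 of the 5 highest log2 fold changes, and its 4 members ranged from 2.40 for Ifit2 to 4.07. Ifit1 was at 11.1, 51.6 and 62.9 CPM in MC and at 1.88, 3.16 and 2.43 CPM in control_MC (log2 fold change 4.07, SE 0.633, edgeR adjusted p = 0.0796). Even MC 1, the lowest, was above the highest control. Ifit3b was at 5.0, 23.8 and 27.0 CPM against 1.45, 1.64 and 0.898 CPM, with a log2 fold change of 3.78 (SE 0.63, edgeR adjusted p = 0.083). Its near copy Ifit3 was at 17.3, 69.6 and 73.2 CPM against 4.53, 4.2 and 5.48 CPM, with a log2 fold change of 3.5 (SE 0.525, edgeR adjusted p = 0.0781). Reads shared by this pair cannot be assigned with certainty, but both showed MC 2 and MC 3 close together and MC 1 between them and the controls. Ifi44, an interferon-induced protein of less settled function, was at 8.62, 34.3 and 37.6 CPM against 1.82, 2.11 and 1.48 CPM (log2 fold change 3.88, SE 0.553, edgeR adjusted p = 0.0781).

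The oligoadenylate synthetase family holds enzymes that make the second messenger that activates RNase L, and OAS-like proteins such as Oasl1. Its 5 members had a median log2 fold change of 3.13, from 2.85 for Oas1a to 3.46 for Oas2. In the ISG15 system, the ubiquitin-like modifier Isg15 was at 12, 45.4 and 58.6 CPM in MC and 4.13, 4.29 and 3.10 CPM in control_MC, while the ligase Herc6 had the lowest log2 fold change of the 3 genes, 1.86. The ISG15 protease Usp18, an inhibitor of the receptor, lay beside Isg15, with log2 fold changes of 3.21 and 3.33. Mx1, a dynamin-like GTPase, was at 2.20, 9.85 and 12.8 CPM against 1.39, 0.982 and 1.03 CPM.

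Of the 5 sensors, Zbp1, which binds nucleic acid of Z form, had the highest log2 fold change, 2.91, and Ifih1, which encodes the RNA sensor MDA5, the lowest, 1.42. Ddx58 (RIG-I) was at 1.57, Dhx58 (LGP2) at 2.38 and Eif2ak2 (the RNA-activated kinase PKR) at 1.47. The 3 PYHIN genes ranged from 1.62 for Ifi204 to 1.92 for Mndal and had small standard errors, 0.202 for Ifi203 and 0.22 for Mndal. The lowest log2 fold changes were those of the ADP-ribosyltransferase Parp9 (1.1, SE 0.228, edgeR adjusted p = 0.105) and its partner Dtx3l, a ubiquitin ligase (1.12, SE 0.278, edgeR adjusted p = 0.158). Parp9 was at 35.7, 57.9 and 67.3 CPM in MC against 27.3, 25.5 and 22.2 CPM. Dtx3l was at 28.3, 48.7 and 63.5 CPM against 24.1, 22.2 and 18.3 CPM, so MC 1 lay only a little above its highest control in both genes.

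The 12 other effectors had a median log2 fold change of 2.05. Besides Ifi44 and Ifi35, at the ends of their range, these were Xaf1 (2.66), Rtp4 (2.55), Ifi27l2a (2.41), Rsad2 (2.21), Epsti1 (2.06), Bst2 (2.03), Trim30a (2.02), Samd9l (1.92), Cmpk2 (1.90) and Lgals3bp (1.86). Rsad2, which encodes the radical-SAM enzyme viperin, was at 14.3, 63.0 and 80.2 CPM in MC against 13.9, 11.1 and 9.12 CPM. In MC 1 it was thus only 1.03 times its highest control, the narrowest gap among the 39 members; the widest was 4.08 times, for Ifi44.

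Levels between genes were compared only per kilobase of exon. In control_MC, Ifi27l2a was highest at 40.8 CPM per kilobase (37.7 to 43.1 over 3 libraries), followed by Bst2, the virion tether tetherin, at 39.2 (34.2 to 47.4), a range that overlaps it, and Lgals3bp, a secreted galectin-binding protein, at 29.4 (26.2 to 33). Next came Ifi35, far lower at 5.71 (5.1 to 6.09). In MC the same 3 genes led, with Isg15 next at 51.2 (15.9 to 77.5) and Irf7 after it at 41.9 (15.3 to 67.9). Each of these ranges overlapped that of its neighbour in the order. The lowest and the highest values still kept the order of the means, with Ifi27l2a at 126.1 to 286.6, Bst2 at 101 to 227.5 and Lgals3bp at 69.02 to 141.4. The genes with the highest fold changes were thus not those with the highest levels in controls.

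The libraries of MC did not agree on the size of the difference. MC 1 was the lowest of the 3 in 39 of 39 members, and MC 3 the highest in 37. Relative to the control mean, the median member was 1.1 higher on the log2 scale in MC 1, 2.49 higher in MC 2 and 2.81 higher in MC 3. The MC 2 level was 1.33 (Irf9) to 5.34 (Oas3) times that of MC 1, with a median of 2.49, whereas MC 3 was 0.895 (Herc6) to 1.59 (Irf7) times MC 2, with a median of 1.22. The median SD of the log2 levels within MC was 0.824 over the members and 0.181 over all genes tested, against 0.252 and 0.24 within control_MC. MC 1 was therefore lower in step across the members, and its values still exceeded the controls'.

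**Figure D2:**
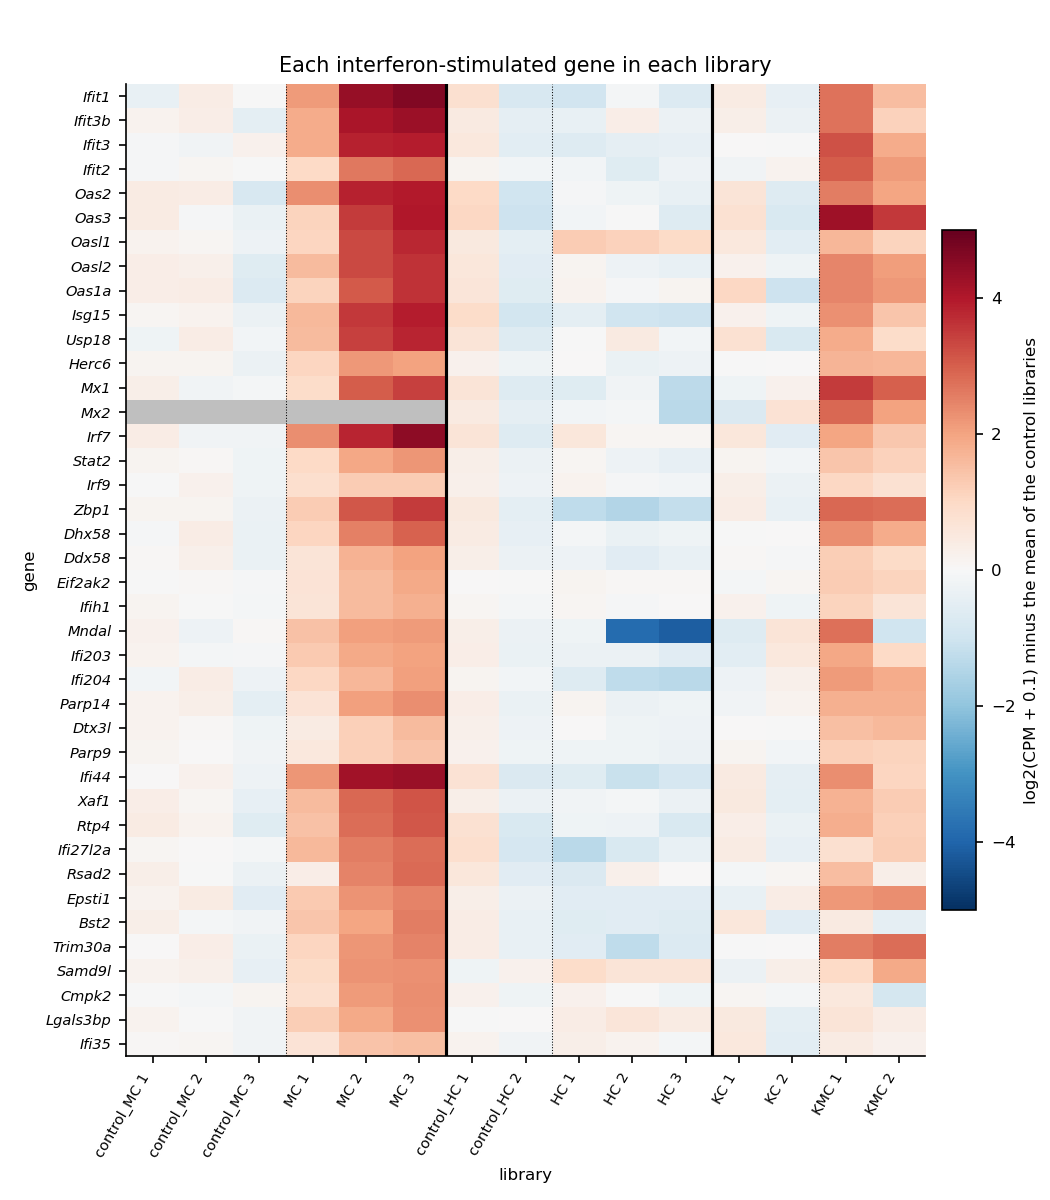
Color shows log2(CPM + 0.1) minus the mean of the control libraries of the same table, for 40 members (rows) and 15 libraries (columns), with Mx2 not listed in the MC table (gray). MC 1 is paler than MC 2 and MC 3 in every row. Where a table has 2 control libraries, the centering places them on opposite sides of 0 in each row.

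Markers of leukocytes moved with the MC libraries. Ptprc, which encodes CD45, was at 38.3, 41.0 and 52.4 CPM in MC and 13.4, 19.8 and 8.40 CPM in control_MC. Of the leukocyte, macrophage and T cell lists, 4 of 5, 7 of 10 and 8 of 8 listed markers were higher in every MC library than in every control. The same held for 10.9% of all genes. No marker of these 3 lists was lower without overlap (9.89% of all genes). The summed leukocyte list was at 207 to 314 CPM in MC and 61.5 to 175 CPM in control_MC, and the plasmacytoid dendritic cell list at 5.5 to 10.7 and 0.764 to 2.83 CPM, with 2 of its 5 markers not overlapping. Of the other lists, 5 of 5 NK cell, 5 of 7 B cell, 3 of 6 dendritic cell and 5 of 6 adipocyte markers were higher without overlap in MC, and none of the neutrophil, ductal, fibroblast, endothelial and islet markers. Of 31 listed acinar markers, 1 was higher and 1 lower without overlap. No marker in these lists was at 0 in all 6 libraries. MC 1 had nearly the same Ptprc level as MC 2, yet its summed member CPM was 1029 against 2267 in MC 2 and 2851 in MC 3 (393 to 510 in control_MC). Divided by Ptprc, the summed members were at 26.9, 55.4 and 54.4 in MC and 38.1, 24.7 and 46.8 in control_MC, so the groups overlapped. In bulk tissue a different number of cells and a different RNA level per cell cannot be told apart, and the part of these cells in the member values was not tested beyond these ratios.

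Upstream genes of the pathway were fixed as a list of 61 ligands, receptors, kinases, sensors and regulators, of which 39 were tested in MC. Of these, 16 were higher in every MC library than in every control (10.9% of all genes) and 3 lower (9.89%), with a median log2 fold change of 0.29. edgeR called none of them and DESeq2 called 9, all higher (3.11% of all genes). The receptor genes showed small values: Ifnar1 had a log2 fold change of 0.21 (SE 0.211) and Ifnar2 one of 0.29 (SE 0.134), with edgeR adjusted p of 0.627 and 0.362. Irf1, a factor induced more by interferon-γ, was at 0.91 (SE 0.241, edgeR adjusted p = 0.177). The interferon genes themselves are not listed in the MC table.

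The comparison of the libraries labelled HC with control_HC asked the same of intact HPK1, but its control is labelled WT and not B control. Its direction is bound to the labels, and Map4k1 was lower in the libraries labelled HC than in control_HC. Members showed no common shift of comparable size. Their median log2 fold change was -0.27, from -1.64 for Mndal to 1.06 for Oasl1, and 7 of 40 were above 0 and 33 below, where 49.8% of the 18407 genes tested were above 0. Neither direction held a member that edgeR called (0.467% of all genes were called higher and 0.0978% lower). At an unadjusted p under 0.05, 3 members were higher (8.39% of all genes) and 5 lower (7.47%), and 4 were higher without overlap (17.5%) and 6 lower (16.1%), shares near those over all genes. DESeq2 called Oasl1 higher (1.45% of all genes) and Ifi204 and Zbp1 lower (1.09%).

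Oasl1, an OAS-like protein that restrains Irf7 translation, was at 31.3, 29.3 and 25.3 CPM in the libraries labelled HC and 18.3 and 9.24 CPM in control_HC (log2 fold change 1.06, SE 0.29, edgeR adjusted p = 0.173). All 3 were above both controls. Samd9l followed, at 109, 89.6 and 88.4 CPM against 49.8 and 65.7 CPM (log2 fold change 0.73, SE 0.16, edgeR adjusted p = 0.115), and Lgals3bp at 516, 598 and 533 CPM against 397 and 398 CPM (log2 fold change 0.47, SE 0.132, edgeR adjusted p = 0.181). These 3 did not overlap with the controls either. Irf7 and Ifi35 made up the 5 highest, with log2 fold changes of 0.12 (SE 0.374) and 0.11 (SE 0.184), and both overlapped their controls.

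Among the lower members, Zbp1 was at 4.69, 4.13 and 4.91 CPM in the libraries labelled HC against 16.0 and 8.19 CPM (log2 fold change -1.40, SE 0.296, edgeR adjusted p = 0.104), without overlap. Isg15 was at 2.75, 1.94 and 1.87 CPM against 7.45 and 2.05 CPM, so that its log2 fold change of -1.12 (SE 0.525, edgeR adjusted p = 0.369) came mostly from control_HC 1. Mndal was at 20.4 CPM in HC 1 but 1.56 and 1.27 CPM in HC 2 and HC 3, against 29.2 and 19.3 CPM in control_HC, so its log2 fold change of -1.64 carried an SE of 1.1 (edgeR adjusted p = 0.529). The HC 1 value lay between the 2 controls. Nearest to 0 were Usp18 (log2 fold change -0.01, SE 0.408) and Ifih1 (0.02, SE 0.116), of which Ifih1 was measured far more closely. Stat2 was at 46, 35.7 and 32.3 CPM against 52.3 and 34.9 CPM, and Irf9 at 47.2, 40.2 and 38.4 CPM against 50.7 and 34.8 CPM, both within the range of, or just below, their controls.

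The 2 control_HC libraries disagreed with each other more than the 3 libraries labelled HC did. Control_HC 1 was higher than control_HC 2 in 38 of 40 members, by a median of 1.69 times and up to 4.38 times for Oas3. The median SD of the log2 levels was 0.531 over the members within control_HC, against 0.163 over all genes, and 0.204 and 0.192 within the libraries labelled HC. The direction of the median depended on which control was used: it was 0.12 without control_HC 1, with 29 of 40 members above 0, and -0.67 without control_HC 2. The 5 leukocyte markers were all lower without overlap in the libraries labelled HC, as were 8 of 10 macrophage markers (16.1% of all genes). Ptprc was at 62.5, 35 and 48.9 CPM against 116 and 72.5 CPM. Also lower were 5 of 8 neutrophil, 3 of 7 B cell, 2 of 5 plasmacytoid dendritic cell, 1 of 6 dendritic cell, 2 of 7 fibroblast and 2 of 6 endothelial markers. No T cell, NK cell or adipocyte marker was lower or higher without overlap. Of the ductal list, 5 of 10 markers were higher and 1 lower, and 2 of 7 islet markers were higher (17.5% of all genes). The part of these cells in the member values was not tested.

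The difference between the effect in MC and the effect in the libraries labelled HC was tested directly, as an interaction over the 11 libraries. The 14884 genes tested were listed in both tables and passed the filter on low counts. The difference was positive in 39 of 39 members, with a median of 2.69 on the log2 scale against -0.03 over all genes, and edgeR called 24 of 39 (1.77% of all genes were called in that direction). The largest called value was 4.93 for Ifi44 (SE 0.793, edgeR adjusted p = 0.0243), followed by Ifit1 with 4.80 (SE 0.886, edgeR adjusted p = 0.0314). All 3 transcription factors were called: Irf7 with 3.63 (SE 0.702), Stat2 with 1.98 (SE 0.406) and Irf9 with 1.15 (SE 0.256), at edgeR adjusted p of 0.0337, 0.0367 and 0.0468. Ifi35, with 1.13 (SE 0.315, edgeR adjusted p = 0.0786), was not. The sign refers to the libraries as labelled, and Map4k1 was lower in those labelled HC than in control_HC. The count of members called was 0 without control_MC 1, MC 2, HC 2, HC 3 or control_HC 1, and 5 to 38 without each other library. Age and count table also differ between the MC and HC comparisons, and control_MC is labelled B control but control_HC WT. None of these can be told apart from the transgenes.

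**Figure D3:**
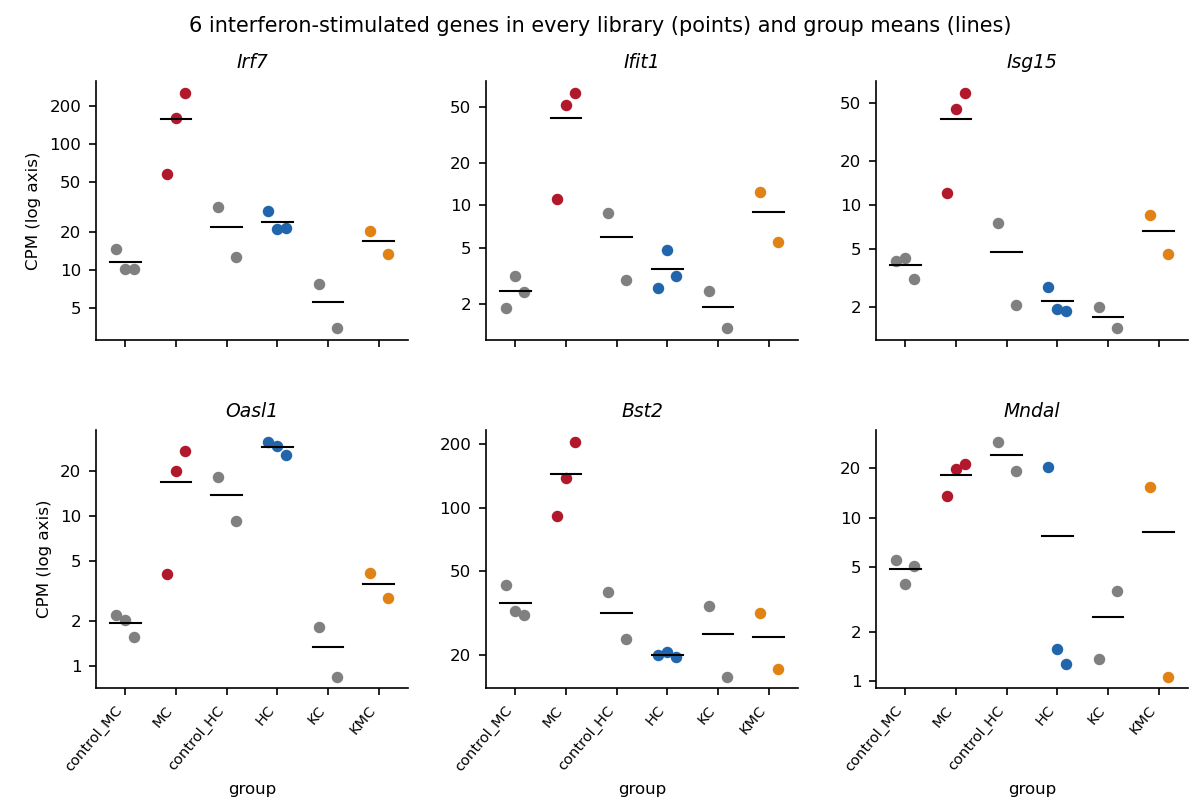
CPM (log axis) of 6 members in every library (points) of the 6 groups, with group means as lines. Irf7, Ifit1, Isg15 and Bst2 stand apart from controls in MC, Oasl1 is also high in the libraries labelled HC, and Mndal splits the libraries within HC and within KMC.

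The comparison of KMC with KC, both with the shared allele, asked what M46 adds in neoplastic pancreas. Members were again mostly higher, with a median log2 fold change of 1.65 against 0.03 over the 15733 genes tested, but less evenly than in MC. They ranged from -0.03 for Bst2 to 4.34 for Oas3, and 38 of 40 were above 0 (51.3% of all genes). Without overlap, 35 of 40 were higher, as were 34.4% of all genes, and at an unadjusted p under 0.05, 33 of 40 (16.1%). edgeR called none of the 40 after adjustment (0.00636% of all genes were called higher and 0.0127% lower), with adjusted p from 0.0796 to 0.976, while DESeq2 called 26 (9.25%). Leaving out a library left a single one in its group. The members' median log2 fold change was 1.25 without KMC 1, 1.84 without KMC 2, 1.89 without KC 1 and 1.62 without KC 2. KMC and KC also differed in age (9 and 15 months) and in sex markers, with Xist at 405 and 306 CPM in KMC and Ddx3y at 10.7 and 17.3 CPM in KC; these cannot be told apart from the genotype.

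Oas3, the synthetase for long RNA, was at 5.52 and 3.36 CPM in KMC and 0.408 and 0.0774 CPM in KC (log2 fold change 4.34, SE 0.785, edgeR adjusted p = 0.0796), on only 6 and 2 counts in KC. Mx1 was at 5.75 and 4.00 CPM against 0.34 and 0.503 CPM (log2 fold change 3.49, SE 0.536, edgeR adjusted p = 0.0796). Both genes were low in KC, so their fold changes rest on few reads there. Zbp1 was at 10.1 and 9.77 CPM against 1.70 and 1.01 CPM (log2 fold change 2.90, SE 0.429, edgeR adjusted p = 0.0796). Ifit3 was at 15.1 and 5.92 CPM against 1.56 and 1.55 CPM (log2 fold change 2.75, SE 0.536, edgeR adjusted p = 0.0796), and Trim30a, a TRIM ubiquitin ligase, at 17.3 and 20.5 CPM against 2.86 and 2.90 CPM (log2 fold change 2.71, SE 0.337, edgeR adjusted p = 0.0796). The 2 KMC libraries agreed closely for Zbp1 and Trim30a and differed for Ifit3, where KMC 1 was the higher.

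The transcription factors were lower in this order than many effectors. Irf7 was at 20.5 and 13.3 CPM in KMC against 7.75 and 3.48 CPM (log2 fold change 1.60, SE 0.464, edgeR adjusted p = 0.114), a difference less than that of Irf7 in MC, although the 2 were not tested against each other. Stat2 was at 29.0 and 24.6 CPM against 12.2 and 10.2 CPM (log2 fold change 1.27, SE 0.315, edgeR adjusted p = 0.0955), and Irf9 at 25.4 and 20.7 CPM against 15.0 and 10.2 CPM (log2 fold change 0.88, SE 0.34, edgeR adjusted p = 0.168). None of the 3 overlapped with KC. At the other end, Bst2 was at 31.8 and 17.1 CPM against 34.4 and 15.8 CPM, and Cmpk2, a mitochondrial nucleotide kinase next to Rsad2, at 13.2 and 4.89 CPM against 9.86 and 8.51 CPM. Both had log2 fold changes of -0.03 under TMM scaling, with SE of 0.476 and 0.487, and positive ones, 1.41 for Bst2 and 1.26 for Cmpk2, under scaling by library size alone, which moved the median of all genes from 0.03 to 1.47.

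By role, the KMC medians on the log2 scale were 3.07 for the 2 Mx GTPases, 2.48 for the 4 IFIT genes, 2.22 for the 5 oligoadenylate synthetase family members, 1.76 for the ISG15 system, 1.70 for the 3 PYHIN genes, 1.27 for both the transcription factors and the 12 other effectors, and 1.19, the lowest, for the 5 RNA and DNA sensors. Mx2, listed here, had a log2 fold change of 2.65 (SE 0.821, edgeR adjusted p = 0.126) on 78 and 84 counts in KMC and 1 and 9 in KC. The PARP9-DTX3L group, lowest in MC, stood at 1.16 for Parp9, 1.57 for Dtx3l and 1.78 for Parp14. Mndal was at 15.4 CPM in KMC 1 but 1.06 CPM in KMC 2, below both KC libraries (1.36 and 3.56 CPM), the same kind of split as in the libraries labelled HC.

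KMC 1 was higher than KMC 2 in 34 of 40 members, by a median of 1.39 times, with the acinar list at 52.2 and 26.3% of counts in the 2 libraries. Markers of leukocytes went the other way: Ptprc was at 33.4 CPM in KMC 1 and 58.6 CPM in KMC 2, against 3.13 and 10.1 CPM in KC. All markers of the leukocyte (5), macrophage (10), neutrophil (8) and T cell (10) lists were higher without overlap in KMC (34.4% of all genes). So were 7 of 7 fibroblast, 6 of 7 B cell, 5 of 6 NK cell, 5 of 6 dendritic cell and 1 of 6 endothelial markers. Of the plasmacytoid dendritic cell list, 4 of 5 markers were higher and 1 lower, and of the ductal list 4 of 10 were higher and 1 lower. Lower without overlap (30.9% of all genes) were 30 of 32 acinar genes, 3 of 7 islet and 1 of 6 adipocyte markers. Acinar shares of counts were 73.2 and 63.6% in KC. Divided by Ptprc, the summed members were at 20.0 and 8.98 in KMC and 95.8 and 21.4 in KC, lower in KMC than in KC. The part of tissue composition in the member values was not tested beyond these ratios.

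**Figure D4:**
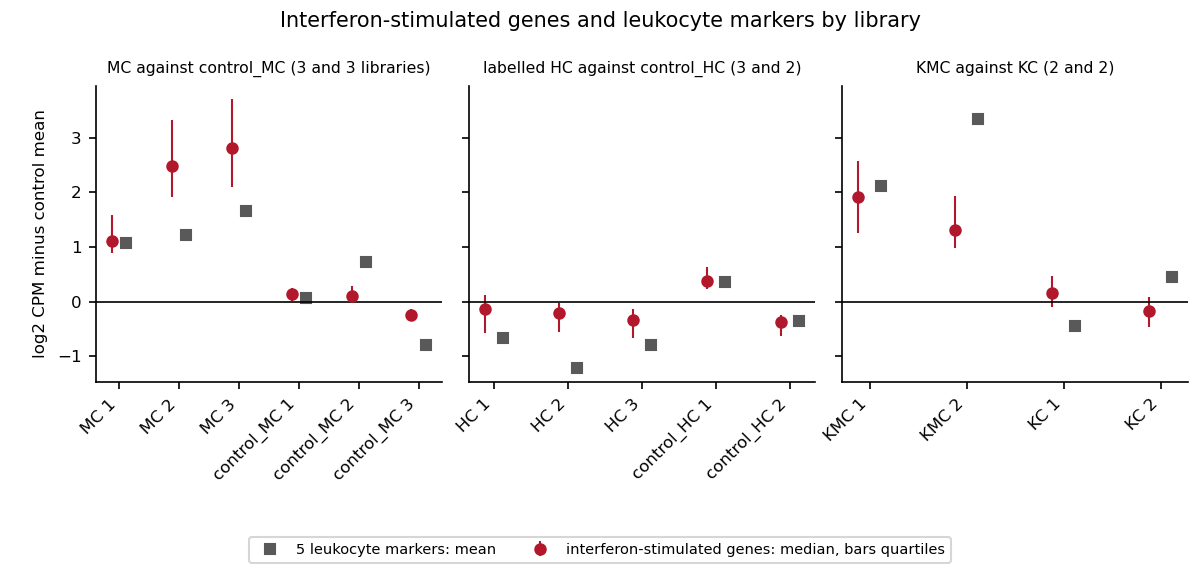
For each library, the median member with quartile bars (circles) and the mean of 5 leukocyte markers (squares), both as log2 CPM minus the control mean of the same table. In MC 2 and MC 3 the members exceed the markers by 1.27 and 1.15, in MC 1 by 0.02, and in KMC 2 they lie 2.03 below them.

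Of the pathway list, 39 genes were tested in each of the other comparisons. In KMC, 26 were higher without overlap (34.4% of all genes) and 6 lower (30.9%), and DESeq2 called 14, all higher (9.25% of all genes). The log2 fold change was 1.02 for Ifnar1 (SE 0.379), 1.11 for Ifnar2 (SE 0.367) and 0.93 for Irf1 (SE 0.342), with edgeR adjusted p of 0.136 to 0.161. In the libraries labelled HC, 4 of 39 pathway genes were higher without overlap (17.5% of all genes) and 11 lower (16.1%). The log2 fold changes of Ifnar1, Ifnar2 and Irf1 were -0.29, -0.34 and -0.16 there. Of the 20 type I and III interferon genes listed in these tables, 16 had 0 counts in all 5 libraries of the HC table and 15 in all 4 of the KMC table, Ifnb1 among them. No interferon gene of these types exceeded 4 counts in a library, and Ifng had at most 6. A count of 0 allows up to 3 counts, 0.0357 to 0.204 CPM by library, so transcripts of these interferons were at or near the limit of detection at this depth. This limit covers counting error only.

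**Figure D5:**
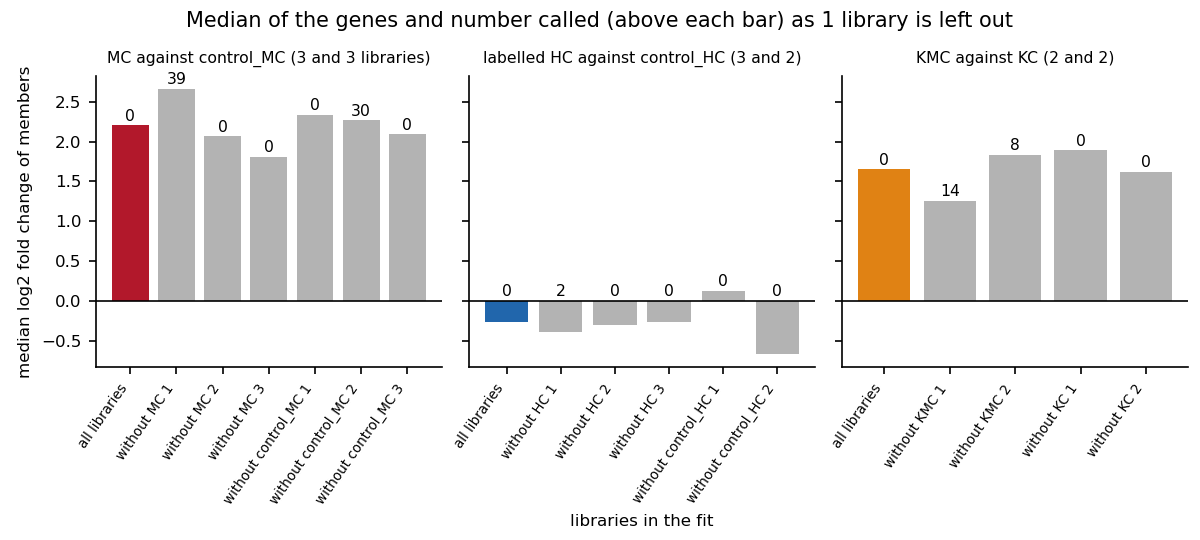
Bars give the median log2 fold change of the members with all libraries (colored) and with each library left out (gray), and the number above each bar is how many members edgeR called. The MC median stays between 1.81 and 2.66 while the calls go from 0 to 39, and the HC median changes sign without control_HC 1.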

How the data were processed

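RNA-Seq counts of 15 libraries were analyzed: MC with control_MC (3 and 3), the libraries labelled HC with control_HC (3 and 2) and KMC with KC (2 and 2). The authors used STAR and GRCm38, summarized reads per GENCODE gene and deposited raw counts without normalization; the processing notes also list HTSeq 0.6.1 and STAR 2.6.1a. Use of strand in counting is not given in the sources used here. A deposited table of the authors' own MC comparison, with fold changes and p-values, was not used.

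Each table was filtered with filterByExpr, scaled by TMM and tested with edgeR 4.0.16 (quasi-likelihood, R 4.3.3), with Benjamini-Hochberg adjustment over all genes tested. Genes were called where the adjusted p was 0.05 or lower and the log2 fold change was 1 or more in either direction. DESeq2 1.42.0 served as an alternative. Standard errors are the fold change divided by the root of F. Groups do not overlap where all libraries of one exceed all of the other. Steps were tested on simulated data. Libraries of a group differed beyond counting noise (mean chi-square per gene of 39.5 to 463 between pairs), so all were kept.

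The members and lists were chosen with earlier results of these data known. Named in full were Stat2, Irf9 and Irf7, members past the call limits (10 at most), the 5 highest and 3 lowest fold changes among members of at least 1 CPM, and the 2 nearest to 0; Ifnb1, Ifng, Ifnar1, Ifnar2 and Irf1 stood for the pathway. A further gene of the pathway and the allele shared by KMC and KC are not reported here. Other genes given as examples were chosen after their values were seen. Positions, exon lengths and shared sequence came from GENCODE M21. Alternatives tried were other scaling (also without acinar genes), filters and tools, a replicate block, a joint fit and leaving out each library.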

Additional observations from a re-analysis of the deposited data

Results flagged for a closer look

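The effect in MC differed from that in the libraries labelled HC by the test of the difference itself in 24 of 39 members (edgeR, adjusted p of at most 0.05 and a difference of at least 1 on the log2 scale), in all 24 in the direction of a higher value in MC. Those given singly were Ifi44 with a difference of 4.93, Ifit1 with 4.80, Isg15 with 4.43, Zbp1 with 4.30, Ifit3 with 4.1, Oas2 with 3.98, Ifit3b with 3.92, Irf7 with 3.63, Ifi27l2a with 3.41, Oasl2 with 3.26, Stat2 with 1.98 and Irf9 with 1.15. In Isg15, Zbp1, Ifi44 and Ifi27l2a part of the difference came from log2 fold changes of -1.01 to -1.40 in the libraries labelled HC. Of these, Isg15, Ifi44 and Ifi27l2a overlapped their controls, which disagreed: 7.45 and 2.05, 3.90 and 1.38, and 34.5 and 10.7 CPM in control_HC 1 and control_HC 2. In Irf7, Stat2 and Irf9, at -0.20 to 0.12 in the libraries labelled HC, nearly all of the difference came from MC. The direction refers to the labels, and Map4k1 was lower in the libraries labelled HC than in control_HC. The count of 24 was not stable to leaving out a library (0 to 38).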

How the results depend on the processing

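The direction of all 39 members in MC held under every alternative tried, with a median log2 fold change of 1.81 to 2.66 as single libraries were left out and 2.01 to 2.59 under the other settings. The number called did not hold. With scaling by library size alone, edgeR called 1 gene in MC and 4715 genes and 37 members in KMC (median 3.06), 98 genes and 11 members in the test of the difference between the MC and HC effects, and in the libraries labelled HC Ifih1 moved to -0.012; in KMC Bst2 moved to 1.41 and Cmpk2 to 1.26. DESeq2 called 453 genes and 39 members in MC, 468 genes and 3 members in the libraries labelled HC, 2159 genes and 26 members in KMC and 1005 genes and 36 members for the difference. With no filter on low counts, edgeR called 395 genes and 3 members in the libraries labelled HC and 9 genes and 0 members in KMC, where Bst2 moved to 0.06 and Cmpk2 to 0.052. One fit over the libraries of HC, control_HC, KMC and KC, with HC as labelled, called 1 gene in HC and 3230 genes and 28 members in KMC. The causes were not tested.

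As single libraries were left out, the calls ran from 0 to 718 genes and 0 to 39 members in MC, 0 to 379 genes and 0 to 2 members in the libraries labelled HC, 0 to 2288 genes and 0 to 14 members in KMC, and 0 to 1583 genes and 0 to 38 members for the difference. The median of the members ran from -0.67 to 0.12 in the libraries labelled HC and from 1.25 to 1.89 in KMC.
In the libraries labelled HC, where 7 of 40 members were above 0 with all libraries and 29 without control_HC 1, the log2 fold changes that changed sign among the genes given singly ran, over the libraries left out, from -0.40 to 0.93 for Irf7, from -0.52 to 0.78 for Usp18, from -0.10 to 0.13 for Ifih1, from -0.27 to 0.27 for Irf9, from -0.46 to 0.12 for Stat2, from -1.77 to 0.094 for Isg15, from -0.066 to 0.311 for Ifi35. In KMC, those among the genes given singly ran, over the libraries left out, from -1.25 to 2.62 for Mndal, from -0.55 to 0.62 for Bst2, from -0.92 to 0.54 for Cmpk2, from -0.23 to 0.88 for Ifi35.

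The replicate block, with the replicate number as a term, was fitted as an alternative, since no source ties same-numbered libraries together. Their deviations correlated weakly or in opposite senses (r of 0.07, 0.30 and -0.30 in MC, 0.19 and 0.17 in HC, 0.05 in KMC). These values cannot decide whether the libraries are paired. In MC, pairs of unlike number ran from -0.391 to 0.351, and in groups of 2 libraries the deviations mirror each other. With the replicate block, edgeR called 0 genes in MC, 339 genes and 0 members in the libraries labelled HC, where Irf9 moved to 0.053 and Usp18 to 0.21, 2469 genes and 28 members in KMC, where Bst2 moved to 0.003, and 9 genes and 0 members for the difference.

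Precision is limited by the 2 or 3 pooled libraries a group more than by reads, except for low members such as Oas3 and Mx2 in KC. Reads shared by Ifit3 and Ifit3b, by Oas1a and Oas1g, and by the overlapping Parp9 and Dtx3l were counted in a way not stated. Age, sex markers, table and the label of the control (B control or WT) differ between comparisons and cannot be told apart from the transgenes.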

Other observations

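Mndal split the libraries of HC and of KMC. A nearby PYHIN gene on chromosome 1, Ifi202b (173962568 to 173982744, GRCm38), which is no member and was looked at after the Mndal values were seen, was at 57.2 and 56.1 CPM in HC 2 and HC 3 and 58.5 CPM in KMC 2, the 3 libraries in which Mndal was at 1.06 to 1.56 CPM. It was at 0.059 CPM in HC 1, 0.631 and 0.205 CPM in control_HC 1 and control_HC 2 and 0 in KMC 1, where Mndal was at 15.4 to 29.2 CPM. In KC 1 and KC 2, Ifi202b was at 2.86 and 1.70 CPM and Mndal at 1.36 and 3.56 CPM, so KC 1 was low in both genes. Ifi203, which overlaps Mndal on the same strand with a start 181 bases away, was at 34.7, 34.9 and 28.4 CPM in the libraries labelled HC and at 27.1 and 14 CPM in KMC 1 and KMC 2, close together in HC but lower in KMC 2. Ifi209 was at 4.48, 0.858 and 1.46 CPM in the libraries labelled HC (15 and 6.67 CPM in control_HC) and 10.9 and 3.43 CPM in KMC. Within HC and within KMC it was thus lower in the same 3 libraries as Mndal. KC 1 and KC 2, at 0.408 and 0.735 CPM, were lower still than KMC 2. Ifi213, 0 to 1.47 CPM in the libraries labelled HC, was also lowest in HC 2, HC 3 and KMC 2. Ifi202b is not listed in the MC table, in which Mndal was at 3.93 to 21.3 CPM. The strain label, C57BL/6, is the same for all libraries, and the split does not follow the groups.

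The order of the members by fold change differed between MC and KMC. Irf7 was 4th of 39 in MC and 21st of 40 in KMC, Ifi44 was 2nd and 17th, and Bst2 was 22nd and last. Oas3 and Mx1, 8th and 13th in MC, were 1st and 2nd in KMC. These are descriptions of separate comparisons with different controls, and the differences were not tested.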
